A study of Homo sapiens with 8 samples.

Results

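The KLF transcription factors described here are 10 genes, KLF2, KLF3, KLF4, KLF5, KLF6, KLF7, KLF9, KLF10, KLF11 and KLF13, of the 19775 genes that the annotation of the array platform names. Every probe set that this annotation maps to 1 of these genes was taken, which gave 32 of 54613 probe sets once the control probe sets were left out. None of the 32 names a gene outside the list. The genes were selected on family membership and with earlier results of these same arrays in view, so all their values are given as a description, with no test. A probe set counted as expressed if any of its 8 log2 values was 6 or more, which 15503 probe sets and 8429 genes of the whole array did. Of the members, 16 probe sets and 7 genes did so. KLF4, KLF9 and KLF11 stayed under that limit and are described by their values only, and KLF3, KLF5, KLF7 and KLF13 reached it on some arrays only.

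The arrays were made from HT1080, a human fibrosarcoma cell line, to compare inhibitors of the unfolded protein response, the program by which cells answer misfolded protein in the endoplasmic reticulum. Cells in normal growth medium received no compound (Control), 10 µM compound C (CC, a kinase inhibitor), 10 µM versipelostatin (VST, a microbial macrocycle) or 100 µM phenformin (Phen, a biguanide that blocks mitochondrial respiration). Another 4 cultures received 10 mM 2-deoxy-D-glucose (2DG), a glucose analogue that blocks glycolysis and glycosylation, either by itself or together with 1 of these compounds, at the dose used without it. Treatment lasted 18 h in every culture, and each of the 8 conditions has 1 array, so no difference below has a replicate check, an error or a p-value.

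Krüppel-like factors are zinc finger proteins that bind GC-rich DNA, in particular GC boxes and CACCC boxes, and share a nearly identical DNA-binding domain with the SP factors. Outside that domain they differ. KLF2, KLF4, KLF5, KLF6 and KLF7 mostly activate transcription and bind acetyltransferases, KLF3 represses through the corepressor CtBP, and KLF9, KLF10, KLF11 and KLF13 can repress through SIN3A and histone deacetylases. Several of the genes respond within a short time to serum, stress, TGF-beta or steroid hormones, and their mRNAs are short-lived.

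All values are log2 intensities as deposited, and a difference is the log2 value on the first array minus that on the second, so that 1 is a 2-fold difference. The median log2 value of each array, controls left out, was between 3.12 and 3.28 and was taken as background. A value under it was read as not above background, and a difference from it is then given as a bound. The probe set of highest mean stands for its gene wherever no other is named. The 4 comparisons with the Control array share that array, and the 3 with the 2DG array share that one, so values are set side by side and no similarity between such comparisons is drawn from them. HT1080 markers were as the label says. Of 9 fibroblast-like and mesenchymal markers, 8 were expressed, and of 5 epithelial, 4 endothelial and 3 blood markers none was, with a highest log2 value of 4.41.

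The poly-A spike-in transcripts, meant to be mixed into the RNA before labelling, stood above their Control level by 0.35 (log2) in 2DG, by 1.22 in 2DG+CC, by 0.85 in 2DG+VST and by 0.67 in 2DG+Phen. Without 2DG they read higher by 0.10 with CC, 0.05 with VST and 0.28 with Phen. Scaling on these spike-ins moved the median difference of all expressed probe sets to -1.003 in 2DG+CC, -0.60 in 2DG+VST and -0.51 in 2DG+Phen, each against 2DG, to -0.34 in 2DG and to -0.32 in Phen, against medians between -0.19 and 0.01 as deposited. The hybridization controls, a separate set of spike-ins, also stood above their Control level, by 0.21 in 2DG, 0.75 in 2DG+CC, 0.53 in 2DG+VST and 0.58 in 2DG+Phen. Without 2DG they read higher by 0.17 with CC, 0.05 with VST and 0.14 with Phen. A rise on these arrays was thus not particular to the poly-A set. The part of either set in the results below was not tested.

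Promoters of 4 members are shown first, because these genes stand for the main patterns below: KLF5 and KLF6 read higher on the 3 arrays with 2DG and a compound than with 2DG alone, and KLF2 and KLF13 read lower when the compound was VST or Phen. Each sequence holds the 250 bases before an annotated start, 5′ to 3′ on the gene's strand, from RefSeq on GRCh38.p14. Capitals mark GC boxes (GGGCGG) and CACCC boxes (CCACCC) on either strand, the letters that KLF and SP proteins bind.
KLF5 (chr13:73058755-73059004, + strand): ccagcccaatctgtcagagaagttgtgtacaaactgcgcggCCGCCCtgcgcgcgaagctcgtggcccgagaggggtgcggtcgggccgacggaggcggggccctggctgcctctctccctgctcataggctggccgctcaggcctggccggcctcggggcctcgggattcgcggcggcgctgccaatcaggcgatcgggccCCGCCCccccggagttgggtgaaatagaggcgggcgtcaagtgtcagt
KLF6 (chr10:3785210-3785459, − strand): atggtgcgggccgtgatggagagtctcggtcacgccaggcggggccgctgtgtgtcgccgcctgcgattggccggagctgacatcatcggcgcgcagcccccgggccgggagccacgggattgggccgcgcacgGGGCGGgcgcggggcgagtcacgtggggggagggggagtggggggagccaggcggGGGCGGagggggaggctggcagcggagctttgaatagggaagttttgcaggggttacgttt
KLF2 (chr19:16324576-16324825, + strand): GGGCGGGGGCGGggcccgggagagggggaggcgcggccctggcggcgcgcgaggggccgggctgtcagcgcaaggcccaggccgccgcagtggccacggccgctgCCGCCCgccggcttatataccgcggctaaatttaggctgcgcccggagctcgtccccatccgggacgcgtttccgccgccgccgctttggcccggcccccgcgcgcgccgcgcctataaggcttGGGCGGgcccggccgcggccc
KLF13 (chr15:31326585-31326834, + strand): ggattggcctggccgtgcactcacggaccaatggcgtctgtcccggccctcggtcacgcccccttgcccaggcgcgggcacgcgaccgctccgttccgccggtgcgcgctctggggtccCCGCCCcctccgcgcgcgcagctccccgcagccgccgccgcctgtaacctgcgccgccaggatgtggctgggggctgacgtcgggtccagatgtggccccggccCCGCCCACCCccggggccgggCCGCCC

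All 4 hold GC boxes. In KLF2 a pair of them adjoin at the far end, and in KLF13 a GC box and a CACCC box overlap, so their capitals run together. A window of 300 bases, the 250 above plus the first 50 of the transcript, was searched for 8 motifs in 35116 RefSeq promoters, of which 13 belong to 8 of the members (4 starts of KLF7, 2 each of KLF5 and KLF11, and 1 each of KLF2, KLF4, KLF6, KLF9 and KLF13). GC boxes were in 8 of the 13 and in 45.0% of all promoters. CACCC boxes were in 2 of the 13, a KLF7 start and KLF13, and in 34.3% of all promoters. The CCAAT box (CCAAT) was in 6 against 34.6% of all, and the E box (CACGTG) in 4, at starts of KLF4, KLF6, KLF7 and KLF11, against 7.26% of all. A cAMP response element (TGACGTCA, 1.85% of all) was found at 1 KLF11 start, a serum response element (CArG box, 1.29%) and an ATF4 element (TGATGNAA, 3.62%) each at 1 KLF7 start, and an AP-1 site (TGANTCA, 7.71%) at none of the 13. The GC content of the windows was 80.7% for KLF2, 78.3% for KLF13, 71.3% for the KLF5 start shown and 70.7% for KLF6, against a median of 58.7% over all promoters. Windows of other starts lay below that median, those of KLF9 (32.7%), the KLF5 start not shown (40.7%) and KLF7 starts at 42.7%, 43.0% and 56.7%. The KLF5 start not shown held none of the 8 motifs. These matches describe letters and say nothing of binding in these cells.

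KLF5, an activator that drives proliferation of epithelial and smooth muscle cells, had the widest range of the 10 genes, 4.35 over the 8 arrays. Its log2 value was 5.61 on the Control array, 6.61 with CC, 5.88 with VST, 5.28 with Phen and 5.50 with 2DG alone. With 2DG and a compound together it was 9.64 for CC, 7.61 for VST and 8.88 for Phen. All 3 arrays with 2DG and a compound were therefore above the other 5, and 2DG alone differed from the Control array by -0.11. Against 2DG alone KLF5 was higher by 4.14 with CC (17.6-fold), 3.38 with Phen (10.4-fold) and 2.11 with VST (4.30-fold). Against the same compound without 2DG it was higher by 3.03, 3.59 and 1.72 for CC, Phen and VST. A second KLF5 probe set gave the same signs, with 4.04 for CC, 2.84 for Phen and 1.10 for VST against 2DG alone. On this second set 2DG+VST, at 5.32, lay below CC alone, at 5.41, so the order of the arrays differed there. Since these are cultures read as a whole, a higher level in all cells and a higher level in some of them cannot be told apart.

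KLF6, an activator that is induced by injury and stress and has been described as a tumour suppressor, showed the same 3 arrays on top on its most intense probe set. Its log2 value was 9.71 on the Control array, 10.53 with CC, 9.20 with VST, 11.17 with Phen and 9.73 with 2DG. On the arrays with 2DG and a compound it was 12.56 for CC, 11.46 for VST and 12.35 for Phen. Phen alone came next, 1.46 above the Control array, while 2DG alone differed from Control by 0.02, or by -0.33 under poly-A scaling. Against 2DG alone the differences were 2.83 with CC (7.09-fold), 2.62 with Phen (6.16-fold) and 1.73 with VST (3.31-fold).

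The 4 expressed KLF6 probe sets parted in versipelostatin. For 2DG+CC against 2DG they read 2.83, 2.16, 2.54 and 3.24, and for 2DG+Phen 2.62, 1.37, 1.69 and 3.16, all 4 of them higher on both arrays. For 2DG+VST, 208961_s_at and 208960_s_at read 1.73 and 2.61, but 1555832_s_at and 224606_at read -0.17 and -0.19. The KLF6 difference with VST thus rests on 2 of the 4 probe sets, and which part of the transcript each one reads is not given in the files used here. On 1555832_s_at and 224606_at the 2DG+VST array read 9.90 and 9.43, below the Control array at 10.13 and 9.59. Without 2DG the 4 kept together, between 1.30 and 1.65 for Phen and between -0.51 and -0.44 for VST.

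KLF10, also called TIEG1, is an early gene of TGF-beta signalling whose protein represses through SIN3A and raises TGF-beta signalling by lowering SMAD7. It has 1 probe set, which read 7.03 on the Control array, 8.30 with CC, 6.43 with VST, 6.82 with Phen and 7.61 with 2DG. In 2DG it read 9.39 with CC, 8.24 with VST and 9.07 with Phen. The order of the arrays was that of KLF5 and KLF6 at the top, 2DG+CC and then 2DG+Phen, but CC alone came next, just above 2DG+VST. Against 2DG alone KLF10 was higher by 1.78 with CC (3.44-fold), 1.46 with Phen (2.76-fold) and 0.63 with VST. Against the compound alone it was higher by 2.24 for Phen and 1.81 for VST, and by 1.09 for CC, a difference that became -0.03 under poly-A scaling.

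**Figure D1:**
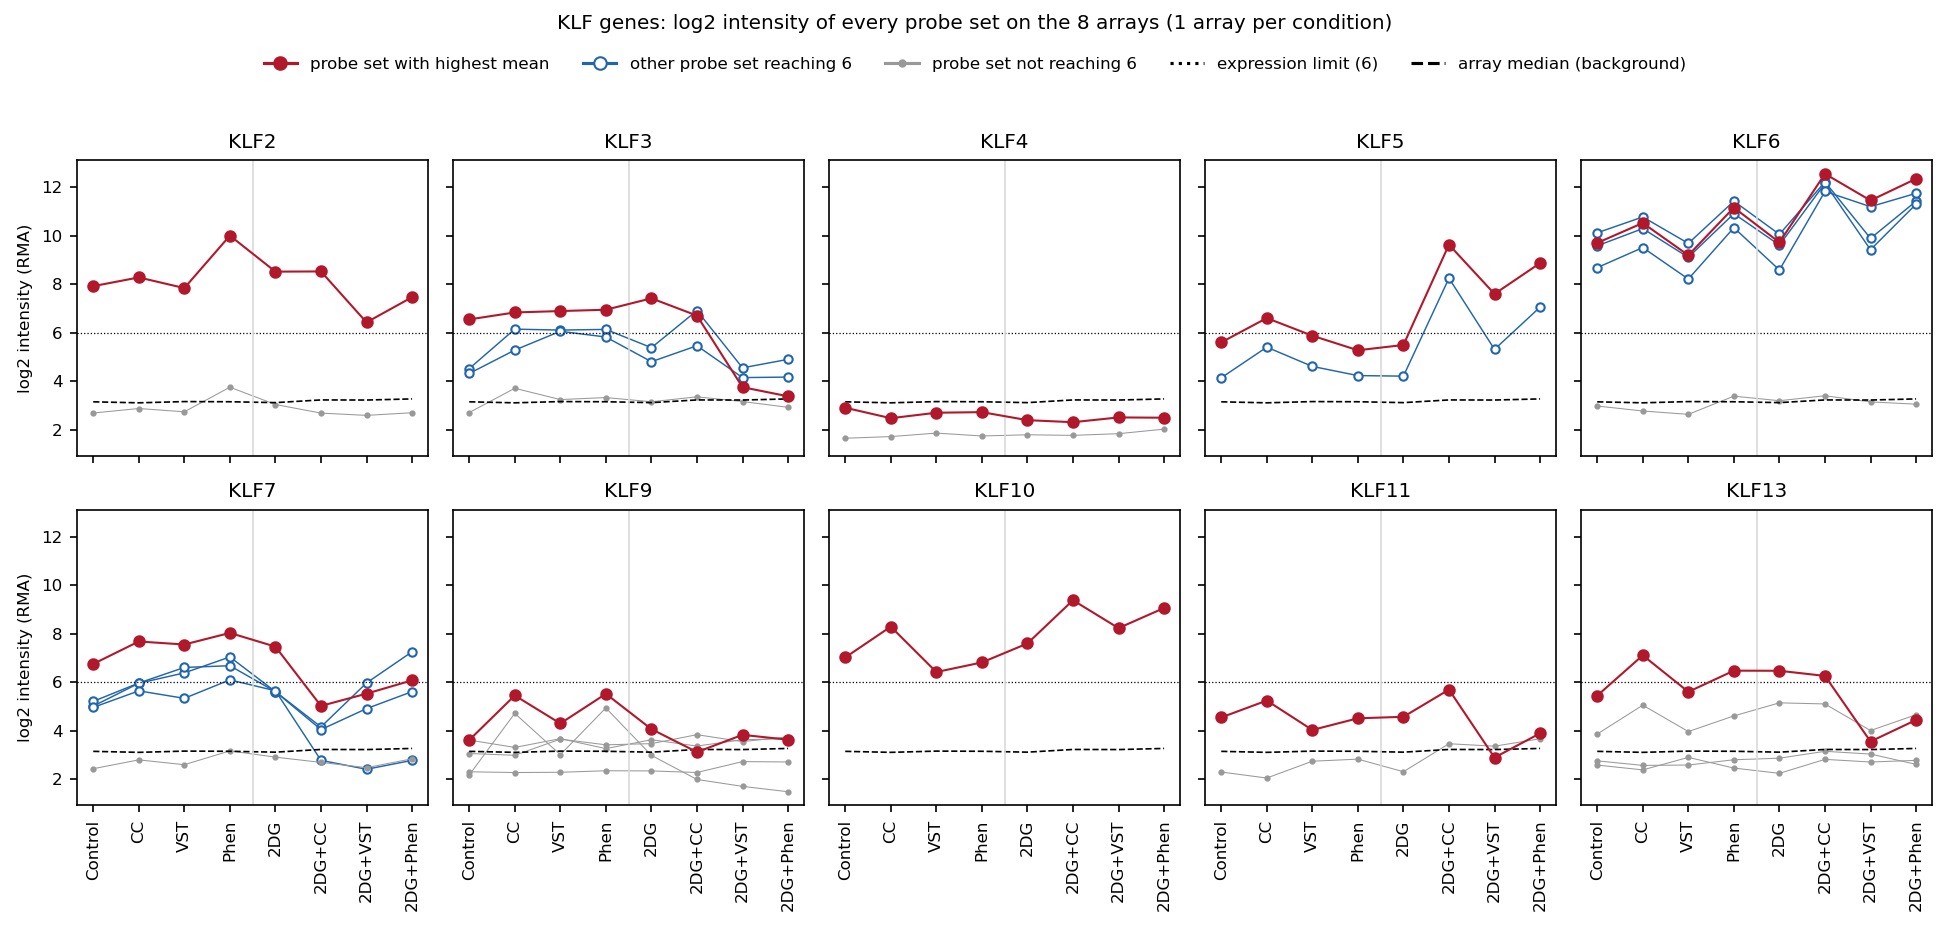
Log2 intensity (RMA) of every probe set of the 10 KLF genes on the 8 arrays, 1 array per condition, with the expression limit of 6 dotted and each array's median dashed; the red line is the probe set with the highest mean. KLF5, KLF6 and KLF10 peak on the 2DG+CC array, the red lines of KLF3 and KLF13 are lowest on the 2DG+VST and 2DG+Phen arrays, and KLF4 stays under background on all 8.

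KLF2, an activator that keeps endothelial cells and lymphocytes quiescent, was lower with VST and Phen in 2DG. Its log2 value was 7.93 on the Control array, 8.29 with CC, 7.85 with VST and 10.01 with Phen. On the 4 arrays with 2DG it was 8.53 alone, 8.53 with CC, 6.43 with VST and 7.47 with Phen. The Phen array was the highest of all 8 and the 2DG+VST array the lowest, a range of 3.57. Phen alone was 2.08 above Control (4.24-fold), whereas in 2DG the difference from 2DG alone was -2.09 with VST (4.26-fold lower) and -1.05 with Phen, the latter -0.77 after centring and -0.92 after quantile normalization. With CC the 2DG array and the 2DG+CC array differed by 0.01 as deposited, and by -0.86 when scaled on the poly-A controls. The other KLF2 probe set read above background on the Phen array only, at 3.76.

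KLF13, a widely expressed factor that binds SIN3A and activates the chemokine gene CCL5 in T cells, was low on the same 2 arrays. It read 5.46 on the Control array, 7.12 with CC, 5.61 with VST, 6.49 with Phen and 6.48 with 2DG. In 2DG it read 6.27 with CC, 3.56 with VST and 4.45 with Phen. The value with VST lay just above the background of its array, 3.23. Every treatment without 2DG read above the Control array, from 0.16 with VST to 1.66 with CC, and 2DG alone was 1.02 above it. Against 2DG alone the KLF13 difference was -2.92 with VST (7.55-fold lower), -2.03 with Phen (4.08-fold lower) and -0.21 with CC, the last of which turned positive after centring and after quantile normalization. A second KLF13 probe set, which stayed under the expression limit but above background on all 8 arrays, gave -1.14 for VST and -0.49 for Phen. Against the compounds alone it gave 0.04 for VST and 0.05 for Phen, where the first gave -2.05 and -2.03.

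KLF3, which recruits CtBP and acts as a repressor in fat, muscle and blood cells, had the lowest values relative to 2DG. Its most intense probe set, 225133_at, read 6.56 on the Control array, 6.84 with CC, 6.90 with VST, 6.95 with Phen and 7.43 with 2DG. In 2DG it read 6.71 with CC, 3.76 with VST and 3.39 with Phen. The last 2 values lay just above the background of their arrays, 3.23 and 3.28, and the other 6 values lay within 0.87 of each other. Against 2DG alone the difference was -3.66 with VST (12.7-fold lower) and -4.04 with Phen (16.4-fold lower).

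The other 2 expressed KLF3 probe sets moved less. They gave -0.83 and -0.66 for 2DG+VST and -0.48 and -0.63 for 2DG+Phen against 2DG, so all 3 were lower with both compounds. With CC in 2DG, however, 225133_at read -0.71 while 225140_at read 1.53 and 219657_s_at 0.66, and the sign for KLF3 there depends on the probe set. Without 2DG both of the others read higher than Control with each compound, by 0.96 to 1.74, where 225133_at read 0.29 to 0.40.

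KLF7, an activator needed for the growth of sensory axons, was lower with all 3 compounds in 2DG on its most intense probe set. This set, 204334_at, read 6.76 on the Control array, 7.69 with CC, 7.56 with VST, 8.04 with Phen and 7.48 with 2DG. In 2DG it read 5.03 with CC, 5.54 with VST and 6.09 with Phen. The 3 arrays with 2DG and a compound were the 3 lowest, and Phen alone was the highest, 1.28 above Control. Against 2DG alone the differences were -2.44 with CC (5.44-fold lower), -1.94 with VST (3.83-fold lower) and -1.39 with Phen (2.62-fold lower).

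For CC the 4 expressed KLF7 probe sets had the same sign, with -1.45, -1.56 and -2.42 or lower on the other 3. For VST and Phen in 2DG they did not. With VST 1555420_a_at read 0.36 higher than 2DG, 238482_at read -0.70 and 240432_x_at read -2.42 or lower, so the sign for KLF7 depends on the probe set. With Phen 1555420_a_at read 1.64 higher than 2DG, 238482_at read 0.00, and 240432_x_at read -2.38 or lower, since it was under background on all 3 arrays with 2DG and a compound. The spread of 4.51 between the lowest and the highest measured KLF7 probe set with Phen was the largest of the 40 cases of a gene with several expressed probe sets in 1 comparison. These 40 cases come from KLF3, KLF5, KLF6 and KLF7 in 10 comparisons. All expressed probe sets had 1 sign in 30 of them and fell in the same class (2-fold higher, 2-fold lower or neither) in 25, with a median spread of 1.02.

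**Figure D2:**
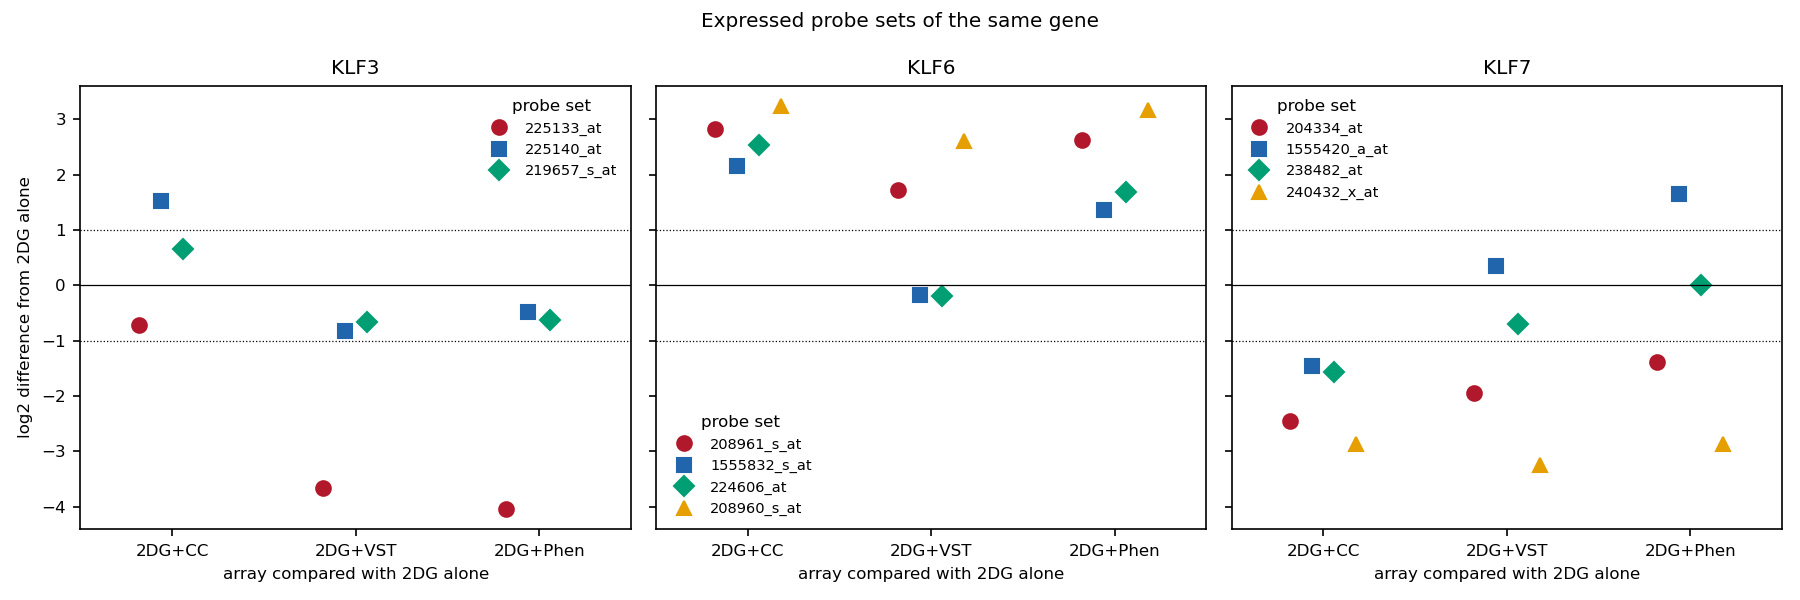
Log2 difference from the 2DG array of each expressed probe set of KLF3, KLF6 and KLF7 on the 3 arrays with 2DG and a compound, with dotted lines at 2-fold. The KLF6 probe sets part into 1.73 and 2.61 against -0.17 and -0.19 with VST, and the KLF7 probe sets run from 1.64 to under background with Phen (240432_x_at is under background on all 3 arrays, and its points show the measured values).

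KLF9, KLF11 and KLF4 did not reach the expression limit. KLF9, a repressor that thyroid and glucocorticoid hormones induce, read 3.62 on the Control array, 5.46 with CC, 4.31 with VST, 5.53 with Phen and 4.07 with 2DG on its most intense probe set. In 2DG it read 3.13 with CC, under background, 3.84 with VST and 3.64 with Phen. CC and Phen alone were the 2 highest arrays, 1.84 and 1.91 above Control. Another KLF9 probe set, 203543_s_at, was above background on those 2 arrays only, at 4.72 and 4.95, which is at least 1.57 and at least 1.79 above Control. The other 3 KLF9 probe sets showed no such peak and ranged over 0.41 to 0.85.

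KLF11, also called TIEG2, a SIN3A-binding repressor known for its role in pancreatic beta cells, read 4.56 on the Control array, 5.25 with CC, 4.04 with VST, 4.52 with Phen and 4.58 with 2DG. In 2DG it read 5.70 with CC, 2.90 with VST, under background, and 3.90 with Phen. It was 1.12 higher with CC than with 2DG alone, and with VST the difference was -1.35 or lower. A second KLF11 probe set, 1553137_s_at, was under background on 5 arrays, that of 2DG alone among them, and in 2DG it gave the opposite sign, at least 0.25 higher with VST and at least 0.55 higher with Phen, where the first gave -0.68 with Phen. KLF4, known from the reprogramming of fibroblasts to stem cells, was under background with both probe sets on all 8 arrays, with a highest value of 2.92.

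In the 4 comparisons of a single agent with the Control array, the KLF genes past 2-fold were all higher ones. With 2DG alone, 1 of the 7 expressed genes (KLF13) was at least 2-fold higher than Control and none was lower, where 3.19% of all 15503 expressed probe sets were higher and 2.53% lower. With CC there were 3 higher (KLF5, KLF10, KLF13) and none lower, against 4.32% and 2.86% of all. With VST none of the genes passed 2-fold, against 2.86% higher and 3.37% lower of all. Of the 16 expressed KLF probe sets 4 were higher, those of KLF3 at 1.59 and 1.74 and of KLF7 at 1.37 and 1.40. None of the 4 stands for its gene. On the Control array they read between 4.33 and 5.22, and 219657_s_at of KLF3 reached 6 on the VST array alone (6.07). KLF5 and KLF13, at 5.61 and 5.46 on the Control array, also reached 6 on other arrays only. For such probe sets the expression limit favours higher calls against Control, and nothing is read from these calls. With Phen 4 genes were higher (KLF2, KLF6, KLF7, KLF13) and none lower, against 2.75% and 3.09%. The median of the 7 genes was 0.60 with 2DG, 0.93 with CC, 0.16 with VST and 1.03 with Phen, where the medians of all expressed probe sets were 0.01, 0.03, -0.01 and -0.04. KLF5 with CC was at 1.001 and KLF13 with 2DG at 1.02, so both lay next to the limit. Both fell under it when the arrays were centred, quantile normalized or scaled on the poly-A controls. As deposited, the second probe sets, which do not stand for their genes, read 1.26 for KLF5 and 1.29 for KLF13, the latter under the expression limit.

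Against 2DG alone, members were found on both sides. With CC in 2DG, 3 were higher (KLF5, KLF6, KLF10) and 1 lower (KLF7), and 11.0% of all expressed probe sets were higher and 23.0% lower. Poly-A scaling made this 2 higher (KLF5, KLF6) and 3 lower (KLF3, KLF7, KLF13), with 3.43% and 50.1% of all under that scaling. With VST, 2 were higher (KLF5, KLF6) and 4 lower (KLF2, KLF3, KLF7, KLF13), with 6.95% and 18.3% of all. With Phen, 3 were higher (KLF5, KLF6, KLF10) and the same 4 as with VST lower, with 7.35% and 20.2% of all, so each of the 7 genes passed 2-fold there as deposited, and 6 did, without KLF2, after centring or quantile normalization. The medians of the 7 genes, 0.01 with CC, -1.94 with VST and -1.05 with Phen, lie between these opposite groups, and the medians of all expressed probe sets were -0.13, -0.11 and -0.19. Several calls depend on the probe set. With Phen the other expressed KLF3 probe sets read -0.48 and -0.63, and those of KLF7 1.64, 0.00 and -2.38 or lower. With VST they read -0.83 and -0.66 for KLF3 and 0.36, -0.70 and -2.42 or lower for KLF7, and the KLF6 probe sets parted as given above. Taking the median over all probe sets of a gene left 4 genes past 2-fold with Phen and 3 with VST.

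The same arrays were also set against the compound alone. 2DG with CC against CC gave 3 higher (KLF5, KLF6, KLF10) and 1 lower (KLF7), with 11.2% and 24.6% of all. With poly-A scaling there were 1 higher (KLF5) and 3 lower (KLF3, KLF7, KLF13), with 2.43% and 61.7% of all under that scaling. 2DG with VST against VST gave 3 higher (KLF5, KLF6, KLF10) and 4 lower (KLF2, KLF3, KLF7, KLF13), with 6.39% and 15.5% of all, and 2DG with Phen against Phen gave the same 3 and 4, with 8.11% and 17.7% of all. For KLF6 these calls depend on the probe set, since the 4 read 2.26, 0.21, 0.31 and 2.98 for VST and 1.19, -0.002, 0.39 and 1.42 for Phen. For KLF7 with Phen they read -1.95, 0.21, -1.07 and -2.83 or lower, so there the sign differs too. With VST the KLF7 probe sets read -2.03, -0.41, -1.70 and -2.11 or lower, and those of KLF5 read 1.72 and 0.70. These 2 calls thus depend on the probe set as well. The medians of the 7 genes were 0.25, -1.41 and -1.95, and those of all expressed probe sets -0.15, -0.07 and -0.15. As the members were chosen with these results known, the counts describe the genes and nothing is read from their distance to the background shares.

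The split of all called probe sets moved with the scaling. In the 6 comparisons of 2DG plus a compound, 26.7% to 32.4% of the probe sets past 2-fold were higher ones as deposited, 43.0% to 46.6% after centring, 38.2% to 43.6% after quantile normalization and 3.78% to 14.1% after scaling on the poly-A controls. For 2DG against Control the share went from 55.8% to 15.4% with poly-A scaling, for Phen from 47.1% to 13.3%, and for CC from 60.2% to 46.8%, or to 48.8% after centring. Of the 43 member differences past 2-fold in the 10 comparisons, 1 changed sign under these 3 scalings, KLF10 in 2DG+CC against CC.

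**Figure D3:**
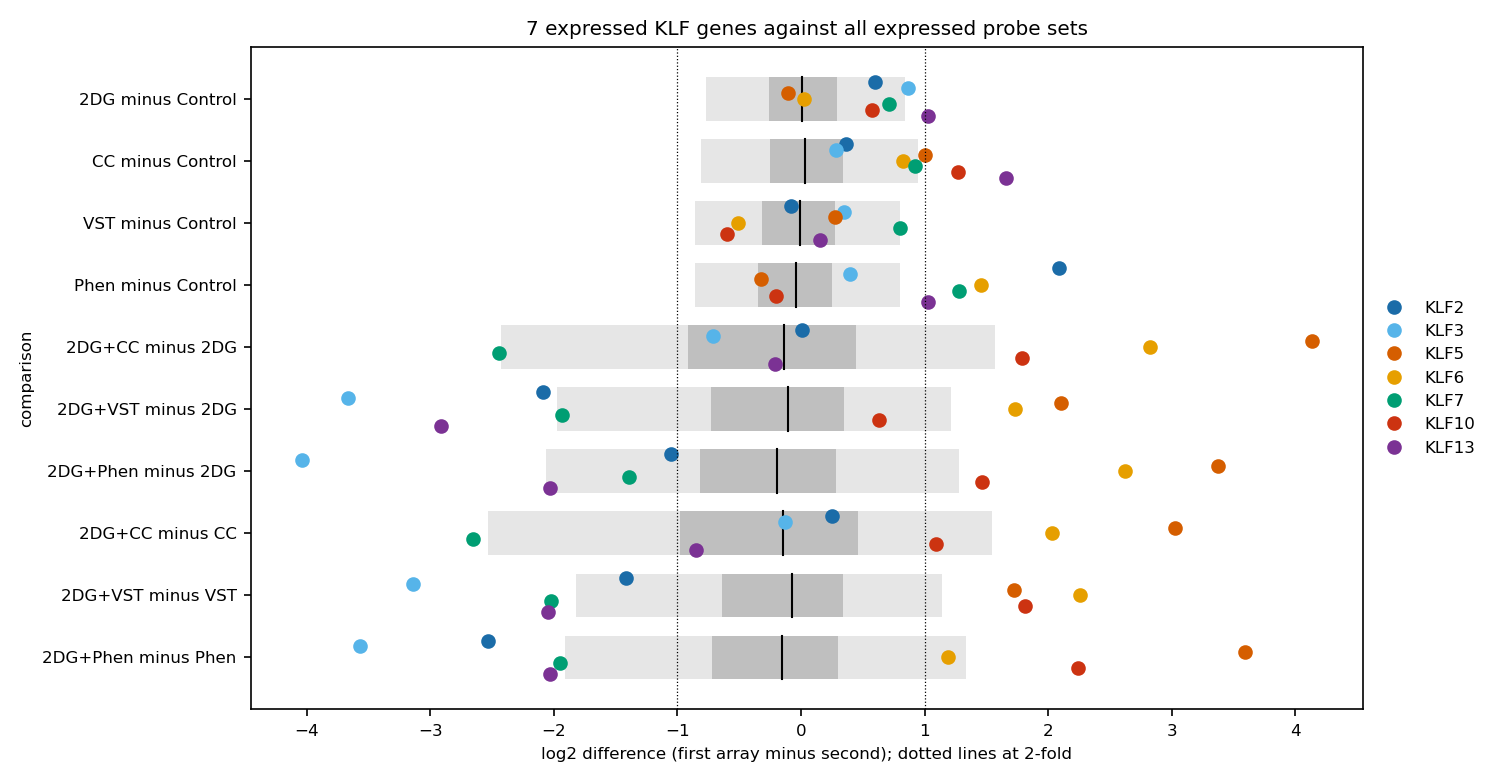
Log2 difference of the 7 expressed KLF genes (coloured points, probe set with the highest mean) in each of the 10 comparisons, over the 25th to the 75th percentile (dark) and the 5th to the 95th (light) of all 15503 expressed probe sets, with their median as a black line and dotted lines at 2-fold. In 2DG with VST or Phen the genes stand on both sides, from -3.66 to 2.11 and from -4.04 to 3.38 against 2DG, while with a single agent against Control they lie between -0.60 and 2.08 (KLF10 in 2DG+CC against CC, at 1.09 here, falls to -0.03 under poly-A scaling).

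For several KLF genes the difference made by a compound had another sign or size in 2DG than in normal medium. A different size was not particular to them. Of all expressed probe sets, 11.0% were higher and 23.0% lower with CC in 2DG, against 4.32% and 2.86% without 2DG. For VST the shares were 6.95% and 18.3% against 2.86% and 3.37%, and for Phen 7.35% and 20.2% against 2.75% and 3.09%. Without 2DG the level with Phen was higher than its reference by 2.08 for KLF2, 1.28 for KLF7 and 1.03 for KLF13, and with the same dose in 2DG the differences were -1.05, -1.39 and -2.03. For KLF3 and KLF13 the difference made by VST was 0.34 and 0.16 in normal medium and -3.66 and -2.92 in 2DG. For KLF7 the probe sets disagree here, and 1555420_a_at was higher in both media, by 2.03 and 1.64 with Phen and by 1.37 and 0.36 with VST. With 1 array per condition none of these differences between media was tested.

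The compounds cannot be ranked by strength, since CC and VST were given at 10 µM and Phen at 100 µM, and their values are set side by side only. KLF2, KLF3 and KLF13 read 8.53, 6.71 and 6.27 in 2DG+CC, against 6.43, 3.76 and 3.56 in 2DG+VST and 7.47, 3.39 and 4.45 in 2DG+Phen. KLF5, KLF6 and KLF10 all read highest in 2DG+CC and lowest of the 3 in 2DG+VST. KLF7 was the member past 2-fold on the lower side of 2DG on all 3 arrays, on its most intense probe set.

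**Figure D4:**
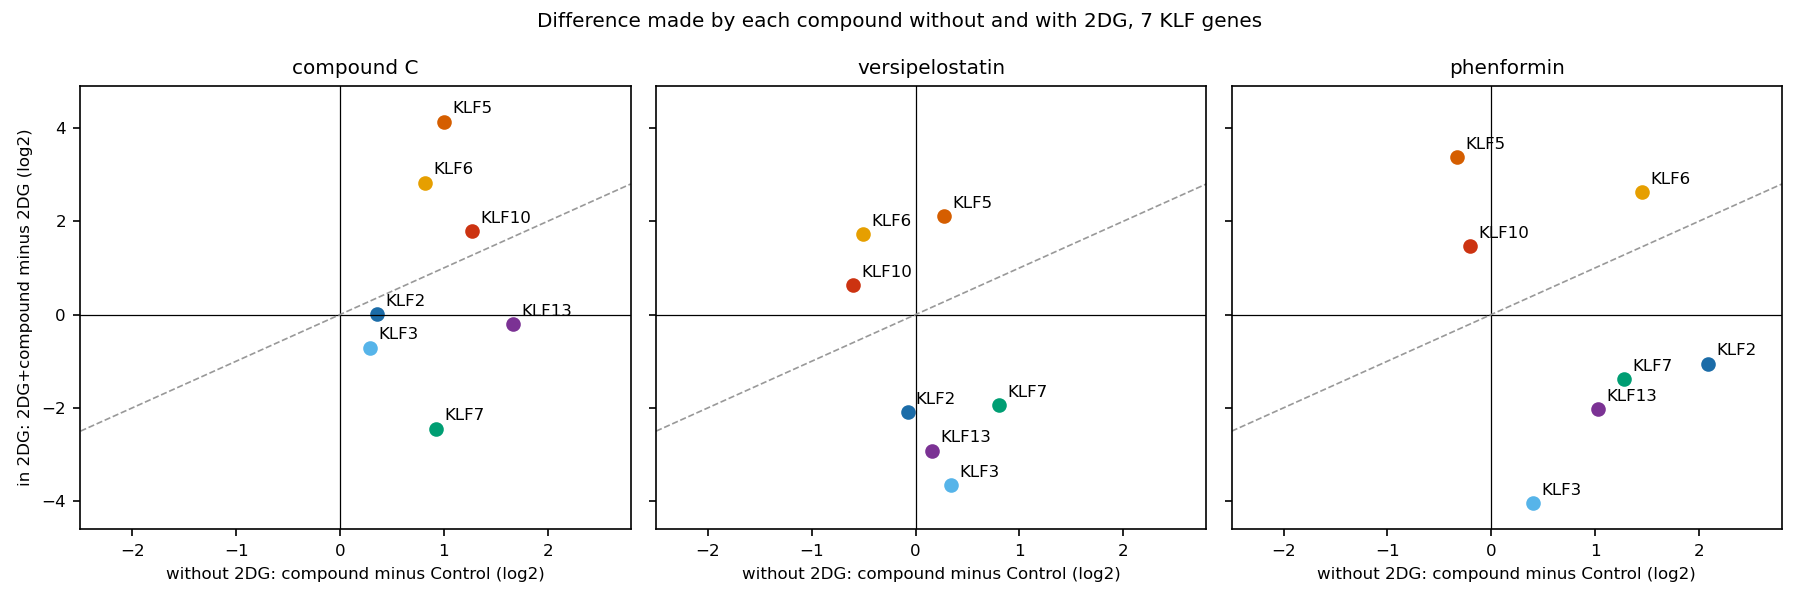
Difference made by each compound in 2DG (2DG+compound minus 2DG, vertical, log2) against that without 2DG (compound minus Control, horizontal, log2) for the 7 expressed KLF genes, with the dashed line at equal values. With Phen, KLF2, KLF7 and KLF13 lie at 1.03 to 2.08 on the horizontal axis and at -2.03 to -1.05 on the vertical one, and with VST, KLF2, KLF3, KLF7 and KLF13 lie between -3.66 and -1.94 on the vertical axis.

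Over the 8 arrays, which include the compound arrays that set these patterns, the members formed groups by correlation, given here as a description with n = 8 arrays. Pearson's r was 0.91 between KLF5 and KLF10, 0.85 between KLF5 and KLF6 and 0.83 between KLF6 and KLF10. It was 0.88 between KLF3 and KLF13, 0.80 between KLF2 and KLF13 and 0.71 between KLF2 and KLF3. KLF5 and KLF7 had the lowest value, -0.86. All points share the same 8 arrays and their scaling.

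The expressed genes outside the list whose pattern came nearest were, for KLF5, CSRNP1 (r = 0.99), RCL1 (0.98) and RAB7A (0.98), and for KLF6, AHR (0.97), the receptor for dioxin and related ligands, CACNA1A (0.97) and PSMF1 (0.96). For KLF10 they were PI4K2A (0.97), CLDN15 (0.95) and ZNF394 (0.94). For KLF3 they were GOLGA8A (0.99), the amino acid transporter gene SLC38A2 (0.99) and RIN2 (0.99), and for KLF13 CLCN6 (0.98), VARS2 (0.97) and MED23 (0.96). KLF7 had ANKRA2 (0.98), PHF20 (0.98) and NFX1 (0.97), and KLF2 had ZMIZ1 (0.95), PML (0.92) and SYNJ2 (0.92). These were picked as the 3 highest of all expressed genes over 8 arrays, so high values are a result of the choice.

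The other KLF and SP genes were read the same way. Counts of this list and the next ones belong beside the shares of all expressed probe sets past 2-fold. Against 2DG these were 11.0% higher and 23.0% lower with CC, 6.95% and 18.3% with VST, and 7.35% and 20.2% with Phen. For a single agent against Control each share lay between 2.53% and 4.32%. Nothing is read from the distance to these shares. Of 16 further KLF and SP genes listed, 6 were expressed (KLF12, KLF16, SP1, SP2, SP3 and SP4). Against 2DG alone, 2DG+CC gave 1 at least 2-fold higher (KLF16, 1.42) and 3 lower (SP2 at -2.86, SP1 at -2.81 and SP4), with a median of -0.96. SP1, the ubiquitous factor that binds the same GC boxes, read 8.44 in 2DG and 5.63 in 2DG+CC, but 7.79 in 2DG+VST and 7.63 in 2DG+Phen. With VST and with Phen SP4 was the 1 gene lower, at -1.42 and -1.05, none was higher, and the medians were -0.42 and 0.05. Without 2DG, KLF12 with CC (1.004) was the 1 gene that passed 2-fold.

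The next lists hold genes that act before and with the KLF proteins. The ERK5 kinase route and its MEF2 factors induce KLF2 and KLF4. Of its 8 genes 5 were expressed, and against 2DG 2DG+CC gave 1 higher (MEF2A, 1.41), 2DG+VST 2 lower (MEF2D at -2.05 and MAP3K2) and 2DG+Phen 1 lower (MEF2D, -1.97), with medians of -0.08, -0.68 and -0.61. None of the 5 passed 2-fold with a compound or 2DG alone. Of 15 corepressors, coactivators and ubiquitin ligases that work with KLF proteins, 13 were expressed. There 2DG+CC gave 2 higher (FBXW7 at 2.03 and SMURF1 at 1.46) and 2 lower (SIN3A at -1.96 and CTBP2), 2DG+VST gave none higher and 5 lower (SMURF1 at -2.25, SIN3A at -1.57 and EP300 at -1.39 among them), and 2DG+Phen gave none higher and 2 lower (SMURF1 at -1.17 and CTBP2 at -1.05), with medians of 0.15, -0.82 and -0.48. In the same order, 11.0%, 6.95% and 7.35% of all expressed probe sets were higher and 23.0%, 18.3% and 20.2% lower. Medians over all expressed probe sets were -0.13, -0.11 and -0.19. SIN3A is the corepressor of KLF9, KLF10, KLF11 and KLF13 and CTBP2 a partner of KLF3.

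Of 15 genes known as targets of KLF factors, 10 were expressed. 2DG alone gave 2 higher (TXNIP at 3.47 and SMAD7 at 1.44), CC gave 2 higher and 1 lower (TXNIP at 2.16, PDGFA at 1.18, MAOA at -1.40), VST gave none and Phen gave 1 higher (CDKN1A, the cell cycle inhibitor p21, at 1.60). Against 2DG, 2DG+CC gave 2 lower (TGFBR1 at -2.49 and ENG at -1.42). With VST 1 was higher and 4 lower and with Phen 1 higher and 3 lower, led by SMAD7 (1.87 and 1.80), TXNIP (-1.82 and -1.72) and CDKN1A (-1.52 and -1.69). The medians in these 3 were 0.06, -0.26 and -0.09. Each of these genes has many other inputs, and whether a KLF protein acted on it was not tested.

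Of 9 genes that share the glucocorticoid receptor with KLF9 as an input, 7 were expressed. TSC22D3, a leucine zipper gene, read highest with Phen, at 9.84, and was 3.44 above Control with CC, 1.67 with VST and 4.39 with Phen. The KLF9 probe set of highest mean also peaked on the Phen array, but none of the other expressed genes of the list did. SGK1 read -0.37 with Phen and -0.83 with VST against Control. The list gave 3 higher with CC (TSC22D3, DUSP1 at 2.45 and SGK1 at 1.09), 2 with VST and 2 with Phen (TSC22D3 and DUSP1 at 1.13). With 2DG it gave 1 (TSC22D3, 1.71), and none was lower in these 4 comparisons. Against 2DG alone, the KLF9 probe set of highest mean read -0.84 or lower with CC, -0.24 with VST and -0.44 with Phen. Another KLF9 probe set, 203541_s_at, read 0.37, 0.08 and 0.28, so the sign depends on the probe set. Both stayed under the expression limit. The list gave 4 higher with CC against 2DG (TSC22D3 at 2.45 and DUSP1 at 1.48 among them). It gave 2 higher and 1 lower with VST and 3 higher with Phen, with SGK1 at 3.05 and 3.22. The medians of the list against 2DG were 1.04, 0.32 and 0.54 for CC, VST and Phen. Poly-A scaling lowers each difference from 2DG by 0.87 for 2DG+CC, 0.50 for 2DG+VST and 0.32 for 2DG+Phen. This and centring leave the sign of every gene named from the 5 lists as given, but the 6 list medians against 2DG that lie between -0.09 and 0.32 change sign under 1 of them.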

How the data were processed

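Expression was measured on 8 Affymetrix Human Genome U133 Plus arrays, 1 per condition, and the number of arrays limits the precision of every value. The authors deposited log2 intensities made with RMA, as their processing notes give it, with the software and its version not given in the sources used here. RMA fits all arrays together, so a shift shared by most genes of an array is largely removed. Scanner files were not used here.

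From 54675 probe sets, 62 controls were left out. Gene names came from the platform annotation (41097 probe sets with 1 symbol, 1801 with several, 11777 with none, and only those with 1 name a gene). Expression limit, fold limit and background rule are given in the report. Differences were taken between single arrays in 10 comparisons, with no test. The members, the 5 gene lists and the limits were chosen with earlier results of these data known. Of each list, up to 3 genes with the largest difference were named, and for each member with a range of 2 or more the 3 expressed genes of highest Pearson r. Motifs were matched on both strands of RefSeq promoters (GRCh38.p14), which the table held for 8 of the 10 genes, KLF3 and KLF10 being the others. Probe set positions and proteins were not analysed here. The 8 alternatives were a fold limit of 1.5, expression limits of 5 and 7, centring, quantile normalization, poly-A scaling, the median over probe sets, and leaving out probe sets ending in _x_at or _s_at. Scripts ran in Python 3.11.15 with numpy 2.4.6, pandas 2.3.3 and matplotlib 3.10.9. The 2-fold call was run on simulated data with a known shift in 1 comparison. That run did not cover the choice of probe set, the expression limit, the bounds or the counts of members.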

Additional observations from a re-analysis of the deposited data

Results flagged for a closer look

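For 3 members the difference made by phenformin was at least 2-fold in opposite directions without and with 2DG. The share of all expressed probe sets that meet this rule was not counted, so the 3 cases describe these genes only. For KLF2 it was 2.08 without 2DG and -1.05 in 2DG, a change of -3.14 on the log2 scale. For KLF7 it was 1.28 and -1.39, a change of -2.67, on the probe set 204334_at, whereas 1555420_a_at gave 2.03 and 1.64, 238482_at gave 1.47 and 0.00, and 240432_x_at gave 1.14 and -2.38 or lower. For KLF13 it was 1.03 and -2.03, a change of -3.06, and 0.75 and -0.49 on the second probe set. Each rests on 4 arrays of 1 culture each, and the difference was not tested. Each of the 3 came under 2-fold on 1 side with another scaling. KLF2 in 2DG was -0.77 after centring and -0.92 after quantile normalization, and without 2DG KLF7 was 0.998 and KLF13 0.75 after scaling on the poly-A controls.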

How the results depend on the processing

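Expression limits of 5 (which takes in KLF9 and KLF11, so 9 genes) and 7 changed no count of KLF genes past 2-fold by more than 1.5 times. A fold limit of 1.5 gave 4 genes instead of 1 for 2DG against Control, 5 instead of 3 for CC and 2 instead of 0 for VST. The share of all expressed probe sets past 1.5-fold was not counted, so nothing is read from these higher counts. Centring, quantile normalization and poly-A scaling each gave 0 for 2DG, and poly-A scaling gave 2 instead of 4 for Phen. The median over all probe sets of a gene gave 0 for 2DG, 2 for VST, 3 instead of 6 for 2DG+VST against 2DG, 4 instead of 7 for 2DG+Phen against 2DG and 4 instead of 7 for 2DG+VST against VST. This median counts probe sets under background too, such as those of KLF13. Without probe sets ending in _x_at or _s_at, KLF3, KLF5, KLF6 and KLF7 were left to count, and the counts were 0 for 2DG, 1 for CC, 2 for Phen, 3 for 2DG+VST and 4 for 2DG+Phen against 2DG, and 2 for 2DG+VST and 3 for 2DG+Phen against the compound alone. Over the 70 member differences and 5 alternatives, 279 values stayed on their side of 2-fold, 31 came under it, 8 came past it and 2 values past 2-fold as deposited changed sign. Some differences under 2-fold changed sign too, such as KLF13 in 2DG+CC against 2DG (0.12 after quantile normalization), KLF3 in 2DG+CC against CC (0.13 after centring) and KLF2 in 2DG+CC against CC (-0.87 with poly-A scaling). The 2 past 2-fold were KLF10 in 2DG+CC against CC with poly-A scaling (-0.029) and KLF6 in 2DG+VST against 2DG without the _s_at probe sets (-0.19). With poly-A scaling KLF10 in 2DG+CC against 2DG was 0.92, KLF5 with CC 0.90, and KLF3 and KLF13 in 2DG+CC against 2DG -1.58 and -1.08. The cause was not tested. No paired analysis was possible because each condition has 1 array. Signal near background limits KLF3 in 2DG+VST and 2DG+Phen, KLF13 in 2DG+VST, and all of KLF9 and KLF11.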
